A study of Mus musculus with 27 samples.

Results

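Toll-like receptors and the proteins that act directly downstream of them were followed as 37 genes, chosen by name for their role, out of the 55483 genes of the deposited count table. They were the LPS co-receptors Cd14 and Ly96, the surface receptors Tlr1, Tlr2, Tlr4 and Tlr6, and the endosomal receptors Tlr3, Tlr7, Tlr8, Tlr9 and Tlr13 with their chaperone Unc93b1. The signalling genes were the adaptors Myd88, Ticam1, Ticam2 and Tirap, the 4 Irak genes, Traf3, Traf6, Map3k7, Tab1, Tab2, Tab3 and Peli1, and the kinase genes Tbk1, Ikbke, Ikbkb, Chuk and Ikbkg. Tollip, Tnfaip3, Tnip1, Tnip3 and Cyld encode inhibitors and ubiquitin editors of the pathway. All 37 passed the filter on low counts and were tested in each comparison.

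The cells were RAW264.7, an established mouse macrophage line, treated for 6 h. DMSO, the solvent, was the control. The LPS group received 1 µg/ml lipopolysaccharide together with DMSO, per the labels. The LPS+TM7nox group received LPS together with the compound TM7nox at 10 µM. From each treatment came 4 total RNA libraries and 4 libraries of RNA recovered with an antibody to HuR (RNA immunoprecipitation, RIP), each numbered replicate 1 to 4, and 1 library recovered with control IgG (replicate 3 in each treatment). No group received TM7nox without LPS, and all values come from 1 cell line. The labels do not say whether replicates were separate cultures, so p-values measure the spread between these libraries, which may be technical.

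Toll-like receptors recognise microbial molecules. LPS is handed by CD14 to TLR4 and its partner MD-2, which Ly96 encodes. TLR4 signals at the surface through TIRAP, MyD88 and the IRAK kinases to TRAF6, the TAK1 kinase complex and the IKK complex, which releases NF-kB, and from endosomes through TRAM (Ticam2) and TRIF (Ticam1) to TRAF3, TBK1 and IKKε (Ikbke). A20 (Tnfaip3), the A20-binding proteins encoded by Tnip1 and Tnip3, CYLD, TOLLIP and IRAK-M (Irak3) restrain the signal. HuR, encoded by Elavl1, is an RNA-binding protein that favours stretches rich in U, or in A and U, and is known to stabilise many short-lived transcripts of the inflammatory response. TM7nox is one of a series of small molecules, the tanshinone mimics, meant to hinder the contact of HuR with RNA.

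The RNA libraries held 2728534 to 28285856 counts, the RIP libraries 19816312 to 41449233 and the IgG libraries 8873091 to 24513902. Replicate 1 of RNA DMSO was the shallowest, and the next RNA library held 16258731. Values are CPM, counts scaled to library size, with edgeR's TMM factors computed together over all 27 libraries; these factors were 1.1 to 1.71 in RNA and 0.519 to 0.996 in RIP. The 7 macrophage markers checked summed to 4421 to 5671 CPM in RNA DMSO, 3344 to 5023 in RNA LPS and 2287 to 4755 in RNA LPS+TM7nox. In the RNA libraries, 3 markers each for T cells, B cells, fibroblasts and epithelial cells summed to at most 0.341 CPM. Elavl1 itself stood at 75.1 to 130 CPM in RNA, at 2042 to 5259 CPM in RIP and at 60.7 to 91.8 CPM in IgG. In bulk libraries, fewer cells carrying a transcript and less transcript per cell cannot be told apart. Exons of Tnip1 (25.3% of bases, with Gpx3), Myd88 (16.2%, with Acaa1a), Tab3 (12.8%, with Gm39523), Irak2 (11.2%, with Gm67402, and 6.5%, with Gm67399), Irak4 (10.3%, with Twf1), Tlr3 (8.2%, with Gm45542) and Tirap (6.6%, with Gm39318) overlap genes on the other strand, beside smaller overlaps of other members. Without the strand setting of the counting, reads in the shared bases cannot be told apart. As counted, Gpx3 reached at most 0.858 CPM and Gm39318 at most 0.891 CPM in any library, and Gm45542 had 0. Acaa1a averaged 32.9 to 43.5 CPM in the RNA groups. Twf1 averaged 31.2 to 42.8 CPM in the RNA groups and 520 to 729 CPM in the RIP groups. A gene was called changed when its adjusted p (Benjamini-Hochberg over all genes tested) from edgeR's quasi-likelihood test was below 0.05.

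Levels were set per kb of all annotated exon bases of a gene, from 24325 bases for Ikbkb to 1236 for Ly96. This length can exceed that of the transcripts present, by an amount that may vary between genes, so the order of members depends on it. Before LPS, Cd14 was the most abundant member by this measure, at 365 ± 82 CPM per kb (SD, n = 4). Unc93b1 followed at 32.8 ± 2.49, Tlr2 at 15.7 ± 2.92, Tab2, which encodes a subunit of the TAK1 complex, at 15.1 ± 0.755 and Tlr7, a receptor for single-stranded RNA, at 11.9 ± 1.0 CPM per kb. Tlr2 and Tab2 did not differ beyond their spread. Tlr4 ranked 14 of the 37 at 6.86 ± 1.16 CPM per kb. The lowest 3 were Tlr6 at 0.832 ± 0.36, Tlr8 at 0.737 ± 0.403 and Tlr9 at 0.707 ± 0.164 CPM per kb, which lay within each other's spread. In LPS, Cd14 remained at the top at 1040 ± 76 CPM per kb, and Tnip1 (65.7 ± 12.6) and Unc93b1 (61.3 ± 3.93) came next and did not differ beyond their spread. Tnfaip3 moved from rank 34 at 0.917 ± 0.125 to rank 6 at 26.7 ± 8.0 CPM per kb, and Tlr3 from rank 30 at 1.56 ± 0.54 to rank 11 at 16.0 ± 2.26. Tlr4 stood at rank 26 in LPS with 3.29 ± 0.629 CPM per kb. Order here means the order of mean levels within a treatment.

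**Figure D1:**
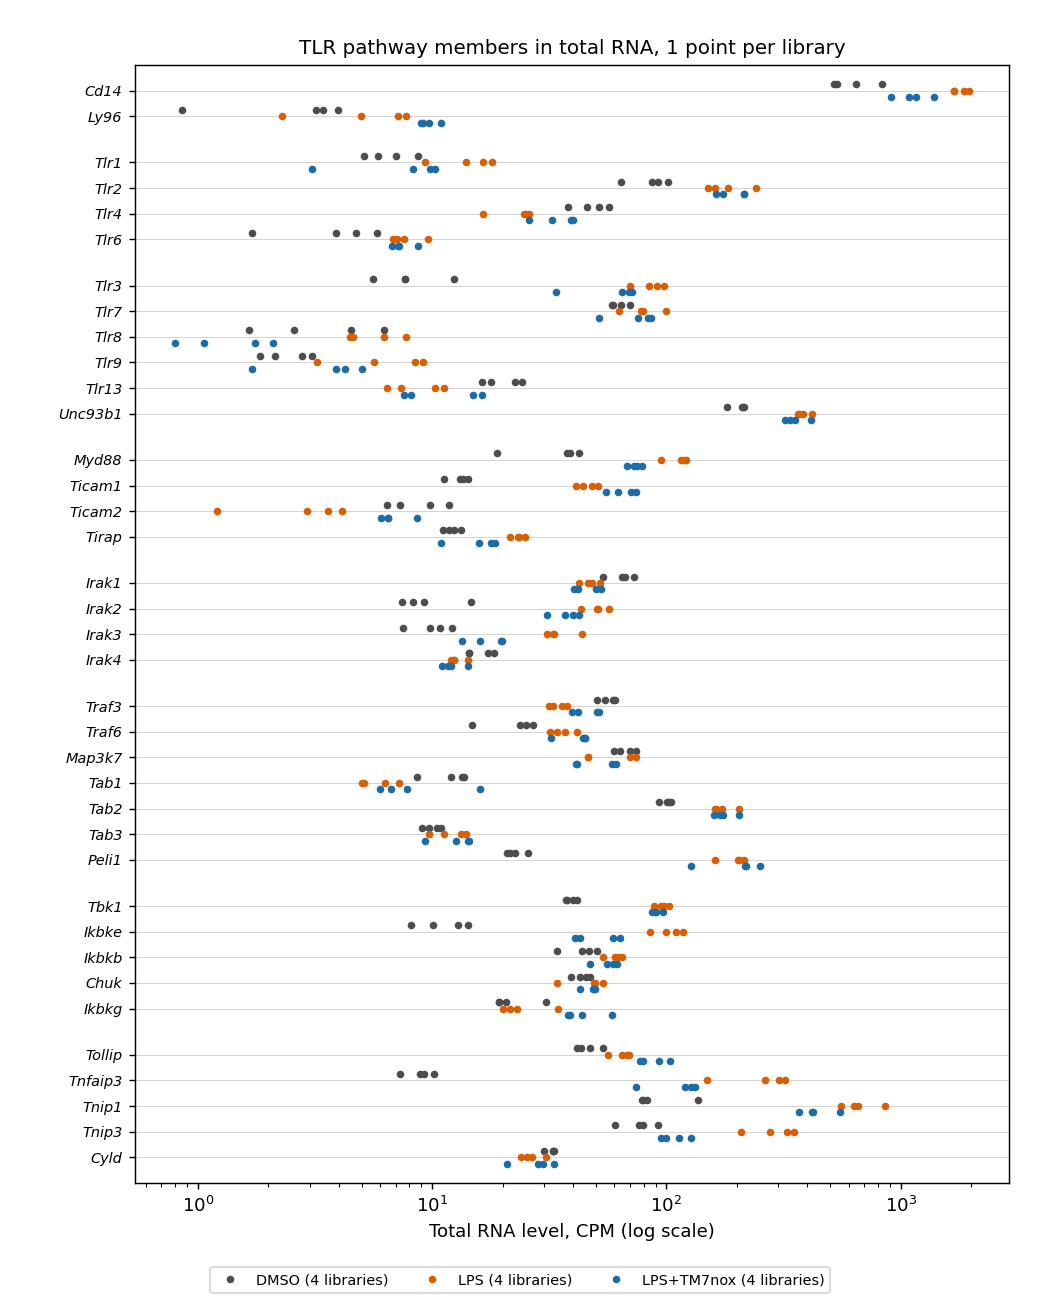
Level of each of the 37 genes in total RNA, in CPM on a log axis, grouped by role. Each point is 1 library of DMSO, LPS or LPS+TM7nox (4 libraries each); Cd14 lies highest in all 3 treatments, and Tnfaip3 shows the widest step between DMSO (7.28 to 10.2 CPM) and LPS (149 to 322 CPM).

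LPS raised most of the pathway in total RNA. Of the 37 members, 22 rose and 7 fell, and 8 did not pass the test. Among the 12369 genes tested, 20.2% rose and 21.7% fell. The members' median log2 fold change was 0.79 against -0.04 over all genes, and the values ran from -1.63 (Ticam2) to 4.79 (Tnfaip3). For exactly the 22 that rose, every LPS library lay above every DMSO library, and for the 7 that fell every LPS library lay below, while 20.4% of all genes tested were separated upwards and 18.1% downwards. The 8 others overlapped. The inhibitors and ubiquitin editors had the largest median of the 8 role groups, 1.85, with 4 of 5 higher.

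Among the receptors, Tlr3, which senses double-stranded RNA, changed most. It measured 12.4, 7.64, 7.67 and 5.59 CPM in DMSO and 69.7, 98, 91.0 and 84.0 CPM in LPS. The lowest LPS library was thus far above the highest DMSO library, and the 10.4-fold rise had a log2 fold change of 3.37 (SE 0.268, edgeR adjusted p = 2.55e-07). Tlr9, a receptor for unmethylated DNA, rose by 1.40 on the log2 scale, Tlr2 by 1.04, Tlr1 by 1.03, Unc93b1 by 0.85 and Tlr6 by 0.82. Tlr6 lost its call when replicate 2 of RNA LPS was left out.

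The receptor for LPS itself went down. Tlr4 had 37.9, 45.8, 56.9 and 51.7 CPM in DMSO and 16.5, 25.9, 24.7 and 25.2 CPM in LPS, with no overlap, and its log2 fold change was -1.12. Tlr13, which recognises bacterial ribosomal RNA, fell by 1.26. Tlr7 (0.28, adjusted p = 0.18) and Tlr8 (0.54, adjusted p = 0.306) did not pass. For Tlr7, adding the replicate number as a block gave an adjusted p of 0.038, within a range of 0.00623 to 0.614 over all its alternatives.

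The co-receptor Cd14 measured 829, 644, 537 and 520 CPM in DMSO and 1960, 1693, 1692 and 1857 CPM in LPS. All LPS libraries lay above all DMSO libraries, and the log2 fold change was 1.45 (SE 0.187, edgeR adjusted p = 2.8e-05). Ly96 was scarce, with 0.856, 3.43, 3.96 and 3.2 CPM in DMSO and 2.3, 7.71, 7.19 and 4.97 CPM in LPS. Its groups overlapped through replicate 1 of LPS, and its log2 fold change of 0.79 did not pass (adjusted p = 0.0845; 0.0242 with the replicate block, and 0.00865 to 0.389 over its alternatives). It passed without replicate 1 of LPS.

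The adaptors did not move together. Ticam1, which encodes TRIF, stood at 14.3, 13.1, 13.6 and 11.2 CPM in DMSO and at 48.3, 41.1, 51.3 and 43.9 CPM in LPS. The groups were widely separated (log2 fold change 1.77, SE 0.139, edgeR adjusted p = 2.23e-07). Myd88 rose by 1.64 and Tirap by 0.88 on the log2 scale. Ticam2, which encodes TRAM, the adaptor that brings TRIF to TLR4, fell by 1.63, from 7.28, 6.4, 9.76 and 11.8 CPM to 1.21, 2.92, 3.6 and 4.14 CPM. Of the exon bases of Ticam2, 65.3% are shared with Tmed7 on the same strand, so how reads were split between the pair is uncertain. Tmed7 had a log2 fold change of 0.17 (adjusted p = 0.48).

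The 4 IRAK genes also divided. Irak2, a kinase-like partner of MyD88, had 9.2, 14.6, 8.32 and 7.43 CPM in DMSO and 43.4, 57.1, 51.1 and 50.4 CPM in LPS. Every LPS library exceeded every DMSO library (log2 fold change 2.28, SE 0.2, edgeR adjusted p = 6.55e-07). Irak3, the inhibitory member, rose by 1.78, whereas Irak1 fell by 0.51 and Irak4, the kinase that starts the cascade, fell by 0.38. The call of Irak4 was weak, since it was lost under DESeq2, under the RLE size factors, without the low-count filter and without any of 5 single libraries (replicates 1 and 4 of DMSO, and 1, 2 and 4 of LPS).

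Peli1, which encodes a ubiquitin ligase that acts on IRAK proteins, stood at 22.5, 25.6, 20.8 and 21.5 CPM in DMSO and at 161, 205, 202 and 214 CPM in LPS. This 8.3-fold rise (log2 fold change 3.05, SE 0.187, edgeR adjusted p = 2.06e-08) was the largest of the 7 genes in its group. Tab2 rose by 0.74 and Traf6 by 0.60, and Tab1 fell by 1.05 and Traf3 by 0.76. Map3k7, the gene of the TAK1 kinase, had a log2 fold change of -0.23 (adjusted p = 0.389; 0.0262 with the replicate block, and 0.00178 to 0.959 over its alternatives). Tab3 had 0.22 (adjusted p = 0.332).

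Of the IKK-related kinases, Ikbke measured 10.1, 8.17, 14.2 and 12.9 CPM in DMSO and 100.0, 85.3, 118 and 110 CPM in LPS. Its libraries did not overlap (log2 fold change 3.13, SE 0.198, edgeR adjusted p = 2.78e-08). Tbk1, its close relative, rose by 1.24 and Ikbkb, which encodes IKKβ, by 0.40. Chuk (0.04, adjusted p = 0.836) and Ikbkg (0.10, adjusted p = 0.755), which encode the other two IKK subunits, did not pass.

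Tnfaip3 made the largest change of all members. It measured 7.28, 10.2, 9.24 and 8.89 CPM in DMSO and 149, 264, 304 and 322 CPM in LPS, so even the lowest LPS library was far above DMSO. The 27.6-fold rise had a log2 fold change of 4.79 (SE 0.253, edgeR adjusted p = 5.69e-09). Tnip1 went from 137, 79.1, 82.9 and 79.6 CPM to 860, 557, 634 and 656 CPM, and replicate 1 was the highest library in both groups (log2 fold change 2.79, SE 0.23, edgeR adjusted p = 3.68e-07). Tnip3 rose by 1.85 and Tollip by 0.42, and the call of Tollip was lost without replicate 4 of RNA DMSO. Cyld had -0.32 (adjusted p = 0.0732; 0.0396 with the replicate block, and 0.00736 to 0.692 over its alternatives) and passed without replicate 2 of LPS.

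**Figure D2:**
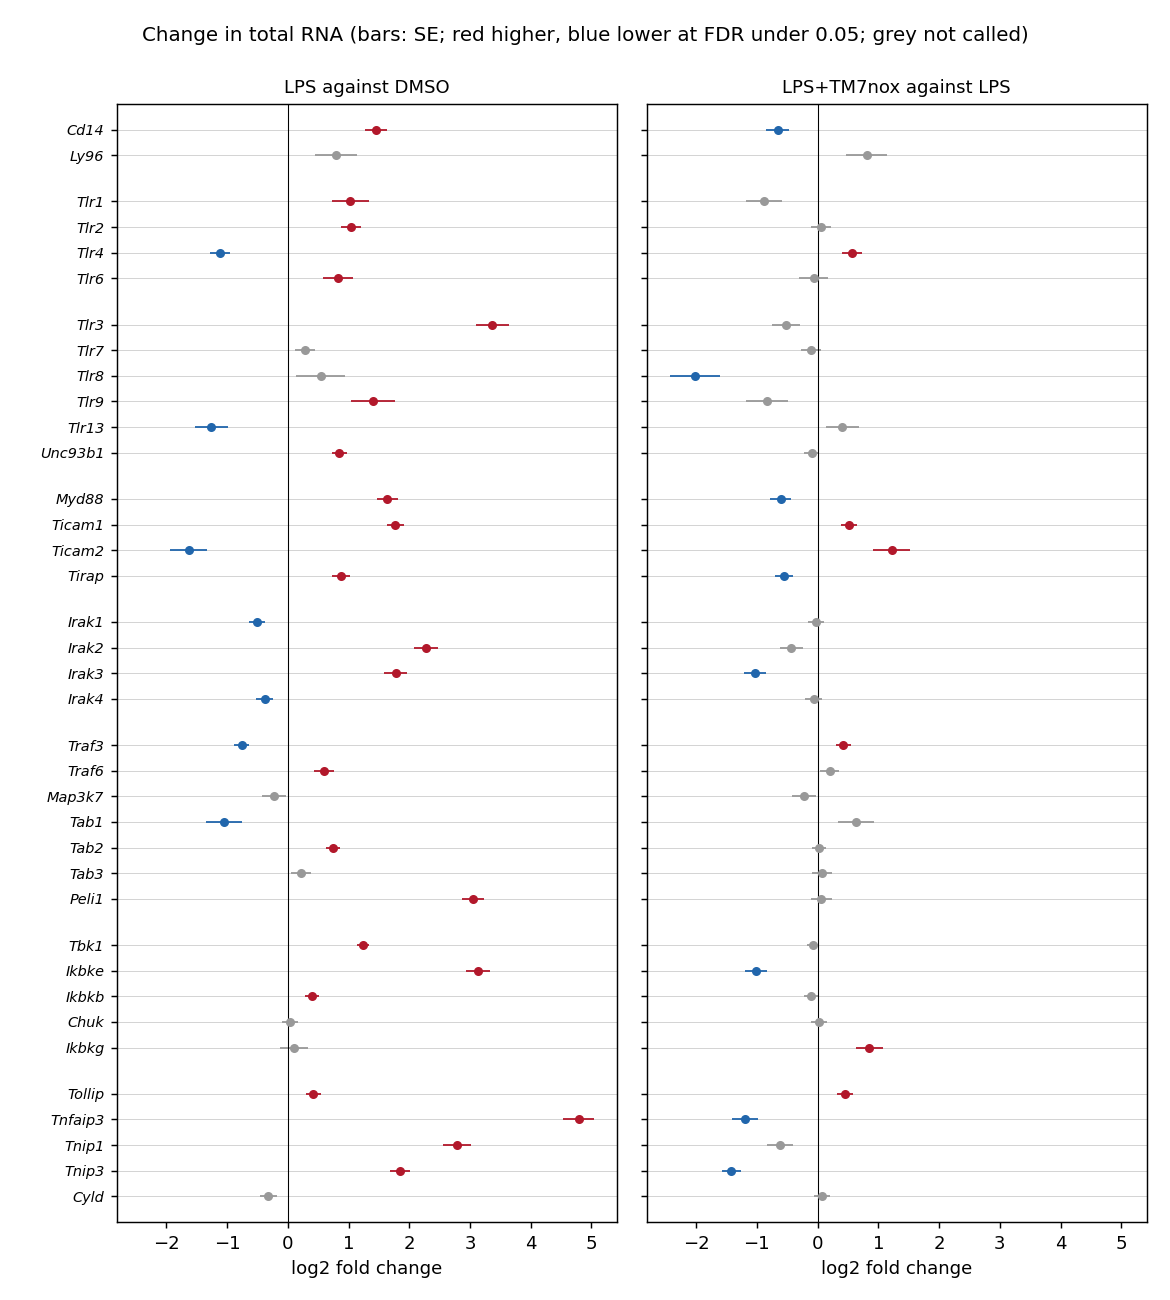
Log2 fold change in total RNA of each of the 37 genes, for LPS over DMSO and for LPS+TM7nox over LPS, with bars of 1 standard error; red points were called higher and blue points lower (adjusted p below 0.05), and grey points were not called. The values run from -1.63 to 4.79 with LPS and from -2.02 to 1.22 with TM7nox added; both comparisons use the same 4 LPS libraries.

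Promoters of members that rose with LPS were compared for the NF-kB decamer, the consensus to which NF-kB dimers bind. It was searched on both strands, counting overlapping matches, in RefSeq promoters (GRCm38.p6) from 250 bases before to 50 bases after the start. The table held 29 of the 37 members, and the motif was in 9 of them, against 9.55% of all 27025 genes in the table. It was in 5 of the 19 members that rose and were in the table, namely Tnfaip3, Tlr3, Tnip1, Tnip3 and Tlr2, in 2 of the 4 that fell (Traf3 and Irak1) and in 2 of the 6 that did not pass (Map3k7 and Cyld). A match describes the letters of this window and not a bound site. The promoters of Tnfaip3 and Tnip1 are shown because both genes rose strongly and each held more than 1 match, as Tlr2 also did. For Tnfaip3 the table lists another promoter too, which held 0 matches and is not shown. The matches are in capitals; in Tnfaip3 they start 125 and 12 bases before the start, and in Tnip1 overlapping matches, which start 58, 57 and 56 bases before it, form 1 palindromic run. The coordinates are those of GRCm38.p6, an older build than the GRCm39 used elsewhere.
Tnfaip3 GRCm38.p6 chr10:19015361-19015660 (minus strand): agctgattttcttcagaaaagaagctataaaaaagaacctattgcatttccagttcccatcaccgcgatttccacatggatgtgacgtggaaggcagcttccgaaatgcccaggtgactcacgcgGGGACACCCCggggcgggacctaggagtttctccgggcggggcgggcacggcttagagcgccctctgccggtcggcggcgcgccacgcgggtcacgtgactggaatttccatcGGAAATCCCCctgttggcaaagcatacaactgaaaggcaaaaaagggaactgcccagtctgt
Tnip1 GRCm38.p6 chr11:54962891-54963190 (minus strand): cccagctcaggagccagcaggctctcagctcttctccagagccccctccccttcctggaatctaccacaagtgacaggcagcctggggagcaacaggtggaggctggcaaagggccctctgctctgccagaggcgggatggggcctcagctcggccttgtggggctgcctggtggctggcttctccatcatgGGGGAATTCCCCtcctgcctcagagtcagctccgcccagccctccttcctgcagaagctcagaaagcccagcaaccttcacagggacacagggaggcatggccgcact

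Adding TM7nox to LPS changed fewer members than LPS did. Relative to LPS alone, 6 members rose, 8 fell and 23 did not pass, while 7.37% of all genes tested rose and 6.4% fell. Leaving out 1 library lowered these counts: without replicate 4 of LPS, 1 member rose and 6 fell, without replicate 2 of LPS 2 and 7, without replicate 3 of LPS+TM7nox 3 and 6, and without its replicate 4, 2 and 6. The median log2 fold change was -0.06 for the members and 0.00 over all genes. Libraries did not overlap for 6 members above LPS (Ly96, Ticam1, Ticam2, Traf3, Ikbkg and Tollip) and for 10 below it (Cd14, Tlr8, Myd88, Tirap, Irak2, Irak3, Ikbke, Tnfaip3, Tnip1 and Tnip3), against 11.1% and 10.3% of all genes tested. Ly96, Irak2 and Tnip1 were among these without passing the test. This comparison shares its LPS libraries with that of LPS and DMSO, so the 2 sets of values are not independent and are given side by side only.

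Tlr8, which like Tlr7 belongs to the receptors for single-stranded RNA, fell most with TM7nox. It measured 7.72, 6.24, 4.58 and 4.46 CPM in LPS and 2.09, 1.06, 0.799 and 1.76 CPM in LPS+TM7nox, so these were low levels that nevertheless did not overlap (log2 fold change -2.02, SE 0.418, edgeR adjusted p = 0.00526). The compound group was also below DMSO, where Tlr8 stood at 2.57, 1.66, 6.26 and 4.53 CPM, except that replicate 2 of DMSO (1.66) lay under 2 LPS+TM7nox libraries. Tlr4 rose by 0.57 over LPS, from 16.5 to 25.9 CPM in LPS to 25.9 to 39.9 CPM, and its ranges met at 25.9. Its call was lost without any of 6 single libraries (replicates 1, 3 and 4 of LPS and 2, 3 and 4 of LPS+TM7nox).

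Negative regulators were among those that fell. Tnip3 had 209, 278, 328 and 349 CPM in LPS and 95, 127, 113 and 99.2 CPM in LPS+TM7nox, against 60.3, 92.3, 76.1 and 79.6 CPM in DMSO. The compound group lay between the other groups without touching either (log2 fold change to LPS -1.42, SE 0.161, edgeR adjusted p = 7.35e-05). Tnfaip3 had 74.2, 120, 127 and 133 CPM in LPS+TM7nox, below all LPS libraries and above all DMSO libraries (log2 fold change to LPS -1.19, SE 0.215, edgeR adjusted p = 0.00203). Irak3 measured 43.7, 32.8, 30.9 and 33.3 CPM in LPS and 19.7, 13.4, 19.8 and 16.1 CPM in LPS+TM7nox, again with no overlap (log2 fold change -1.03, SE 0.182, edgeR adjusted p = 0.00178). Tollip went the other way and rose by 0.45. Tnip1 had a log2 fold change of -0.62, which did not pass. It passed with the replicate block (adjusted p = 0.000334, and 0.000334 to 0.56 over its alternatives) and without replicate 1 of LPS+TM7nox.

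Ikbke fell to 42.7, 40.9, 63.7 and 59.0 CPM in LPS+TM7nox from 85.3 to 118 CPM in LPS, with a log2 fold change of -1.01 (SE 0.18, edgeR adjusted p = 0.00194). With Tlr8, Irak3, Tnfaip3 and Tnip3, it kept its call when any single library was left out. In replicates 1 and 2 alone, Ikbke was the only member called (adjusted p = 0.0411, the highest over its alternatives, whose lowest was 1.17e-07). Ikbkg, which encodes the IKK subunit NEMO, rose by 0.85, from 20.1 to 34.6 CPM to 38.0 to 58.7 CPM. Of its exon bases, 3.8% are shared with G6pdx on the other strand, and G6pdx rose by 0.62 as well (adjusted p = 0.0204); the part of G6pdx reads in the Ikbkg count was not tested. The call of Ikbkg was lost without replicate 1 of LPS+TM7nox or replicate 2, 3 or 4 of LPS.

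Both LPS adaptors of the TRIF branch rose over LPS. Ticam2 had 1.21, 2.92, 3.6 and 4.14 CPM in LPS and 6.48, 6.48, 6.03 and 8.65 CPM in LPS+TM7nox, with no overlap (log2 fold change 1.22, SE 0.303, edgeR adjusted p = 0.0155), and its call was lost without replicate 4 of LPS+TM7nox. Tmed7, which shares most of its exon bases, had a log2 fold change of 0.00 (adjusted p = 0.996). Ticam1 rose by 0.51, to 55.4 to 74.2 CPM. Myd88 fell by 0.61, to 68.1 to 78.4 CPM from 94.6 to 121 CPM, and Tirap by 0.56. Leaving out a single library ended the call of Ticam1 in 4 cases (replicates 1 and 3 of LPS+TM7nox, 2 and 4 of LPS), of Tirap in 1 (replicate 1 of LPS) and of Myd88 in all cases but replicate 1 of LPS.

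Cd14 measured 1384, 906, 1167 and 1085 CPM in LPS+TM7nox, below the lowest LPS library at 1692 CPM (log2 fold change -0.66, SE 0.184, edgeR adjusted p = 0.0276). Leaving out replicate 1 or 4 of LPS or replicate 2, 3 or 4 of LPS+TM7nox ended its call. Traf3 had 37.7, 35.7, 31.5 and 32.7 CPM in LPS and 51.4, 50.5, 39.7 and 41.9 CPM in LPS+TM7nox (log2 fold change 0.42, SE 0.125, edgeR adjusted p = 0.0399), close to the threshold. The call of Traf3 did not hold without replicate 1, 2 or 4 of LPS+TM7nox or replicate 2, 3 or 4 of LPS, nor did that of Tollip without replicate 1, 2 or 4 of LPS or replicate 3 or 4 of LPS+TM7nox.

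The members that did not pass included genes that LPS had raised most. Peli1 had 127, 252, 216 and 218 CPM in LPS+TM7nox, which overlapped LPS (log2 fold change 0.06), and Tlr3 had 33.7, 64.8, 71.5 and 69.1 CPM (-0.52). Tbk1 was at -0.08, Tlr2 at 0.06, Tab2 at 0.02 and Tlr6 at -0.06. With the replicate block, Ly96 (log2 fold change 0.81, adjusted p = 0.0181, range 0.0181 to 0.633), Tlr1 (-0.88, adjusted p = 0.00205, range 0.00199 to 0.431) and Irak2 (-0.43, adjusted p = 0.0288, range 0.0116 to 0.595) also passed, and Tlr1 passed without replicate 1 of LPS. The remaining members were Tlr9 at -0.83, Tlr13 at 0.41, Tlr7 at -0.11, Unc93b1 at -0.10, Irak1 at -0.03, Irak4 at -0.06, Traf6 at 0.20, Map3k7 at -0.23, Tab1 at 0.63, Tab3 at 0.07, Ikbkb at -0.11, Chuk at 0.03 and Cyld at 0.07.

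Against DMSO, LPS together with TM7nox left most of the pathway above its starting level. Of the members, 20 rose, 6 fell and 11 did not pass, while 23.7% of all genes tested rose and 23.6% fell, and the median log2 fold change was 0.74 against -0.01 over all genes. All 20 that rose had no library in common with the DMSO range, whereas of the 6 that fell only Tlr13, Irak1 and Irak4 were separated in this way. Among all genes tested, 23.1% were separated upwards and 18.4% downwards. The libraries are those already given, and the DMSO libraries are shared with the comparison of LPS and DMSO. Log2 fold changes were 3.60 for Tnfaip3 (SE 0.241, edgeR adjusted p = 5.75e-08), 3.11 for Peli1 (SE 0.187, adjusted p = 2.41e-08) and 2.85 for Tlr3 (SE 0.264, adjusted p = 9.82e-07). They were 2.28 for Ticam1 (SE 0.141, edgeR adjusted p = 2.82e-08), 2.17 for Tnip1 (SE 0.224, adjusted p = 2.81e-06), 2.12 for Ikbke (SE 0.191, adjusted p = 7.73e-07) and 1.85 for Irak2 (SE 0.198, adjusted p = 3.73e-06). Ly96, which had not passed in LPS alone, measured 9.01, 10.9, 9.69 and 9.17 CPM with the compound, all above the DMSO maximum of 3.96 CPM (log2 fold change 1.60, SE 0.352, edgeR adjusted p = 0.00185).

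Members below DMSO in LPS+TM7nox were Tlr8 (-1.48), Tlr13 (-0.85), Tlr4 (-0.55), Irak1 (-0.54), Irak4 (-0.44) and Traf3 (-0.35). The call of Tlr8 rested on replicate 3 of DMSO, and that of Tlr4 on replicate 1 of LPS+TM7nox and replicate 3 of DMSO, since it was lost without either. Tlr13 lost its call without replicate 3 of DMSO or replicate 3 or 4 of LPS+TM7nox, and Tlr6, which rose by 0.76, lost it without replicate 2 of DMSO or replicate 4 of LPS+TM7nox. Irak4 lost it without replicate 4 of DMSO or replicate 2 or 3 of LPS+TM7nox, Traf3 without replicate 3 or 4 of either group, and Tnip3, which rose by 0.44, without replicate 1, 3 or 4 of DMSO or 2 or 3 of LPS+TM7nox. Ticam2, which LPS alone had lowered, was at -0.41 and did not pass. Tirap (0.32), Tlr1 (0.16) and Tlr9 (0.57), which LPS alone had raised, did not pass either. Without replicate 1 of LPS+TM7nox, Tirap, Tlr7, Tlr9, Tab1, Tab3 and Ikbkb passed, as did Ikbkb without replicate 3 of DMSO. Map3k7 (-0.46), Tab1 (-0.42) and Ikbkb (0.29) passed with the replicate block, at adjusted p values of 0.000623, 0.0457 and 0.0217 and ranges of 0.000212 to 0.347, 0.000761 to 0.976 and 0.0125 to 0.286.

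Recovery with the HuR antibody was measured as the level in RIP over the level in total RNA. This ratio is relative, because TMM sets a typical gene near 0. In DMSO, 11 members were higher in RIP than in RNA, 13 lower and 13 did not pass, against 37% higher and 33.4% lower among the 14311 genes tested. In LPS the counts were 10, 11 and 16, against 32.9% and 30.8%, and in LPS+TM7nox 10, 13 and 14, against 35.2% and 34.8%. The members' shares were thus near or below those of all genes. Member medians were -0.20, 0.00 and -0.08 on the log2 scale against 0.04, -0.06 and -0.09 over all genes. With RLE size factors instead of TMM, the all-gene medians moved up by 0.15, 0.17 and 0.22, and the calls became 11 higher and 9 lower in DMSO, 12 and 7 in LPS, and 14 and 10 in LPS+TM7nox.

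In all 3 treatments, 10 members were higher in RIP, namely Tlr4, Tirap, Irak2, Irak3, Traf3, Traf6, Map3k7, Peli1, Tollip and Cyld, where 30.1% of all genes were. Another 10 were lower in each, namely Cd14, Tlr2, Tlr6, Tlr13, Ticam1, Tab1, Tbk1, Ikbkb, Tnip1 and Tnip3, against 27% of all genes. All 10 higher members kept these calls with RLE size factors and with DESeq2. Of the 10 lower, 5 did so with both (Cd14, Tbk1, Ticam1, Tlr6 and Tnip1), and Tlr2, Tlr13, Tab1, Ikbkb and Tnip3 did not. Each treatment had its own libraries, but same-numbered libraries deviated together across treatments, so the 3 ratios are not independent.

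**Figure D3:**
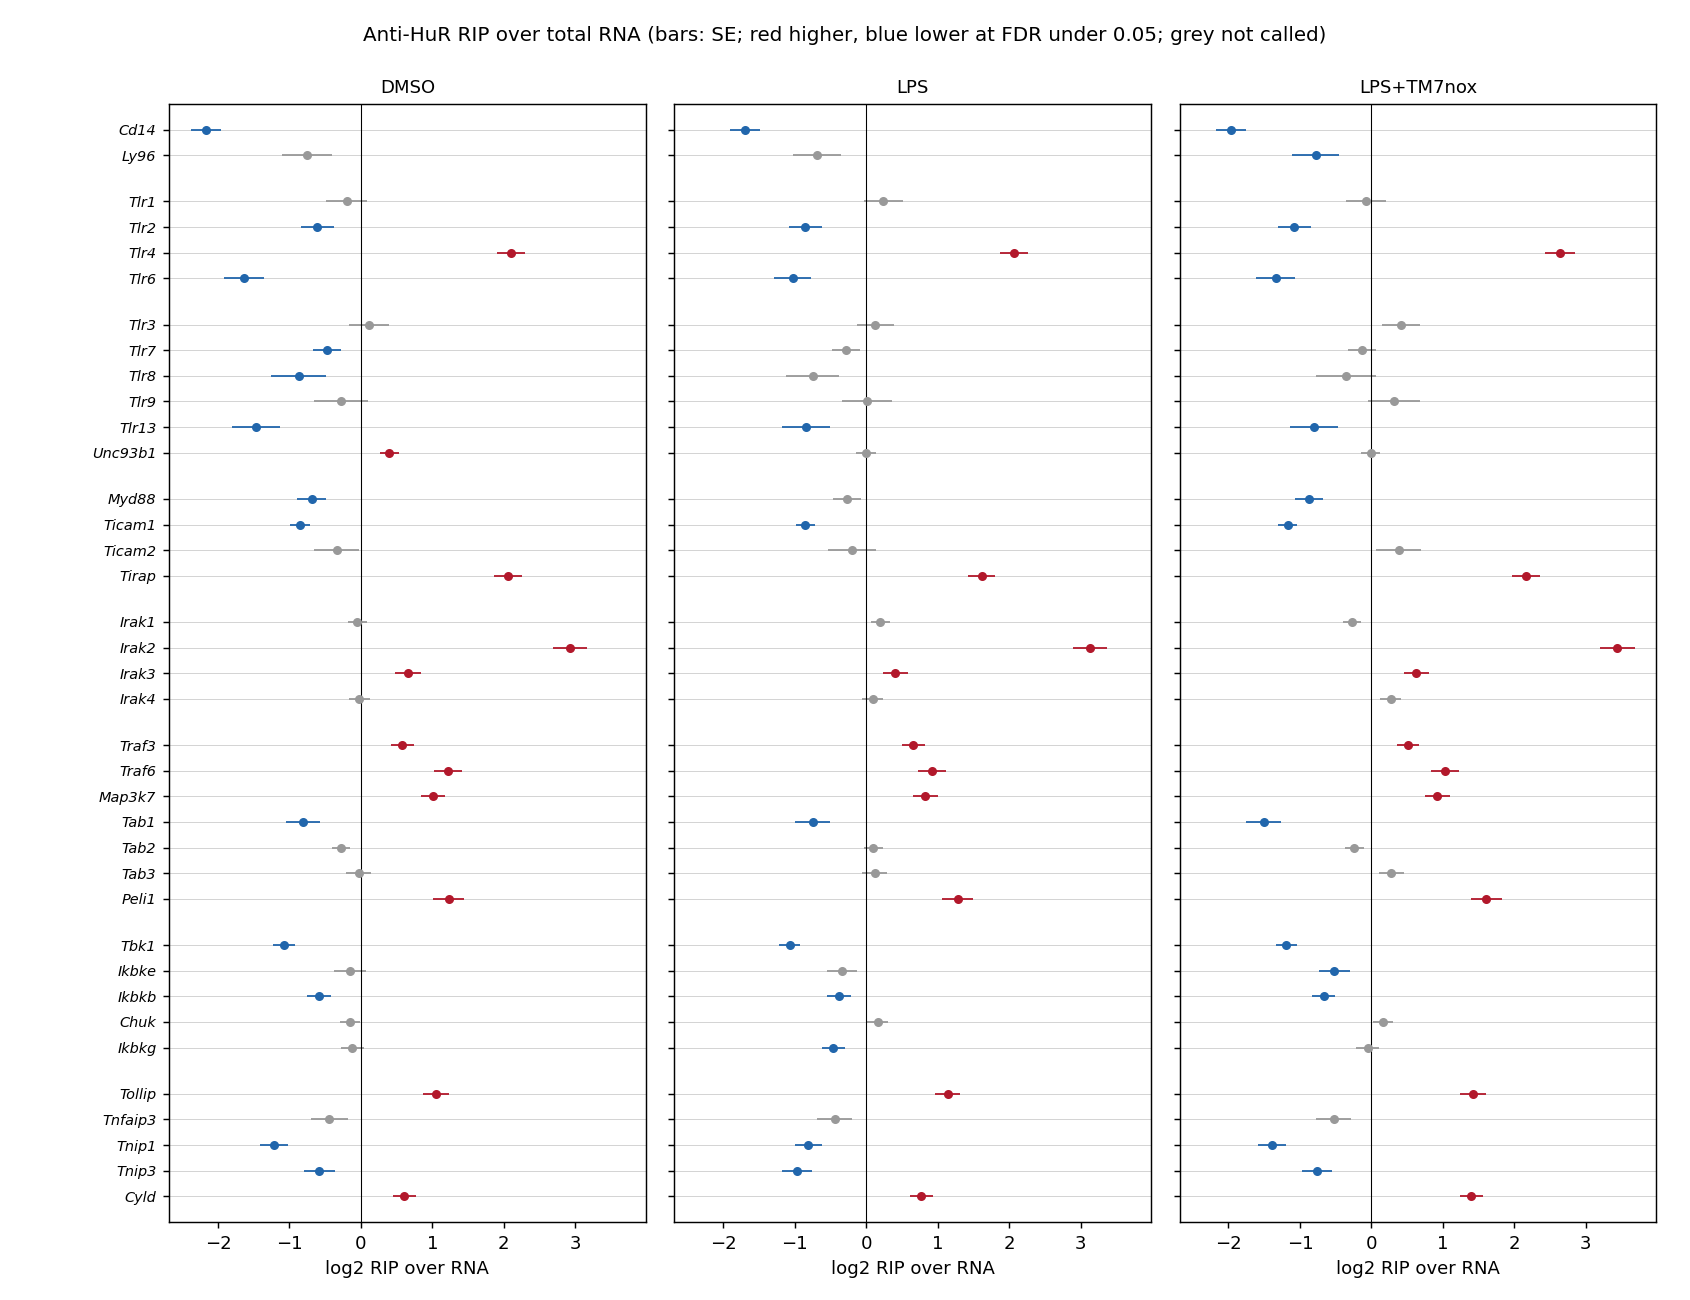
Log2 ratio of anti-HuR RIP over total RNA for each of the 37 genes in DMSO, LPS and LPS+TM7nox, with bars of 1 standard error; red points were called higher and blue points lower (adjusted p below 0.05), and grey points were not called. Irak2 lies at the top in all 3 treatments (2.93, 3.13 and 3.44) and Cd14 lowest (-2.17, -1.70 and -1.96).

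Irak2 was the member most recovered with HuR antibody. Its RIP libraries held 64.9, 83.0, 64.3 and 68.2 CPM in DMSO, 330, 452, 565 and 406 CPM in LPS and 263, 509, 341 and 416 CPM in LPS+TM7nox. Against RNA libraries of 7.43 to 14.6, 43.4 to 57.1 and 31.0 to 42.2 CPM, the same-numbered ratios ran from 5.67 to 9.18, from 7.6 to 11.1 and from 8.49 to 12.1. The log2 ratios were 2.93 (SE 0.241, edgeR adjusted p = 7.24e-11), 3.13 (SE 0.238, adjusted p = 2.09e-11) and 3.44 (SE 0.242, adjusted p = 3.21e-12). RIP and RNA thus stood apart in every replicate, and in both kinds of library all LPS values lay above all DMSO values.

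Tlr4 stood at 187, 164, 243 and 175 CPM in RIP DMSO, at 90.4, 107, 110 and 75.9 CPM in RIP LPS and at 230, 233, 224 and 135 CPM in RIP LPS+TM7nox. These were 3.38 to 4.94, 3.01 to 5.49 and 4.17 to 8.89 times the same-numbered RNA libraries. Its log2 ratios were 2.10 (SE 0.2, edgeR adjusted p = 1.11e-09), 2.07 (SE 0.201, adjusted p = 2.07e-09) and 2.64 (SE 0.204, adjusted p = 2.1e-11). Of the 11 receptor and co-receptor transcripts, Tlr4 was the only member called higher in RIP in any treatment.

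Tirap, the adaptor that anchors MyD88 at the membrane, had 38.6, 37.1, 55.2 and 57.9 CPM in RIP DMSO, 58.3, 73.8, 81.9 and 68.7 CPM in RIP LPS and 48.4, 72.9, 73.1 and 72.8 CPM in RIP LPS+TM7nox. All lay above the RNA libraries, which ran from 10.9 to 24.9 CPM. The log2 ratios were 2.06 (SE 0.196, edgeR adjusted p = 1.07e-09), 1.62 (SE 0.19, adjusted p = 5.81e-08) and 2.16 (SE 0.195, adjusted p = 3.96e-10). The other adaptors differed from it. Ticam1 was lower in RIP in each treatment (-0.85, -0.85 and -1.17), Myd88 was lower in DMSO (-0.69) and LPS+TM7nox (-0.87) with -0.27 in LPS, and Ticam2 did not pass in any (-0.34, -0.20 and 0.38).

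Peli1 and Tollip were higher in RIP as well. Peli1 had 50.4, 51.2, 54.1 and 40.0 CPM in RIP DMSO, 345, 508, 574 and 443 CPM in RIP LPS and 368, 697, 790 and 526 CPM in RIP LPS+TM7nox, and its log2 ratios were 1.23 (SE 0.219, edgeR adjusted p = 2.13e-05), 1.28 (SE 0.216, adjusted p = 1.44e-05) and 1.61 (SE 0.218, adjusted p = 4.24e-07). Every RIP library of Peli1 exceeded its same-numbered RNA library, by 1.86 to 3.66 times. Tollip had log2 ratios of 1.05, 1.14 (SE 0.177, edgeR adjusted p = 4.16e-06) and 1.42 (SE 0.178, adjusted p = 1.26e-07), with 86.4, 78.0, 100.0 and 87.5 CPM in RIP DMSO, 109, 145, 170 and 140 CPM in RIP LPS and 142, 220, 273 and 253 CPM in RIP LPS+TM7nox. Traf6 (1.22, 0.92 and 1.03), Map3k7 (1.01, 0.83 and 0.92), Traf3 (0.58, 0.66 and 0.51), Cyld (0.61, 0.77 and 1.40) and Irak3 (0.66, 0.41 and 0.63) followed. Without the low-count filter, Irak3, Traf3 and Cyld were no longer called in all 3 treatments. The call of Irak3 was also lost in DMSO without replicate 3 of RIP, and in LPS without any of 6 single libraries (replicates 2, 3 and 4 of RNA, and 1, 2 and 3 of RIP).

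Cd14 was recovered least. Its RIP libraries held 168, 105, 124 and 115 CPM in DMSO, 488, 379, 555 and 748 CPM in LPS and 348, 200, 345 and 211 CPM in LPS+TM7nox, which was 0.162 to 0.23, 0.224 to 0.403 and 0.194 to 0.295 times the same-numbered RNA libraries. The log2 ratios were -2.17 (SE 0.212, edgeR adjusted p = 1.83e-09), -1.70 (SE 0.209, adjusted p = 1.22e-07) and -1.96 (SE 0.211, adjusted p = 9.35e-09). Because Cd14 was the most abundant member in RNA, it still stood among the higher CPM values in RIP. A level in RIP and a ratio to RNA therefore order the members differently.

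Tlr6 was lower in RIP at 1.04, 0.983, 1.75 and 1.33 CPM in DMSO, 3.56, 3.78, 3.62 and 4.06 CPM in LPS and 3.33, 1.74, 3.04 and 2.96 CPM in LPS+TM7nox, with log2 ratios of -1.64 (SE 0.28, edgeR adjusted p = 1.28e-05), -1.03 (SE 0.264, adjusted p = 0.00151) and -1.34. Tbk1 had 17.8, 21.3, 17.1 and 11.8 CPM in RIP DMSO, 44.1, 40.5, 51.5 and 44.1 CPM in RIP LPS and 40.0, 36.9, 48.6 and 26.9 CPM in RIP LPS+TM7nox, below every RNA library of the same treatment. Its log2 ratios were -1.08 (SE 0.153, edgeR adjusted p = 9.06e-07), -1.07 (SE 0.151, adjusted p = 1.16e-06) and -1.19 (SE 0.152, adjusted p = 1.82e-07). For both genes every RIP library of LPS lay above every RIP library of DMSO, as in RNA.

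Tnip1 had 52.2, 28.2, 31.0 and 34.8 CPM in RIP DMSO, and its log2 ratios were -1.21 (SE 0.195, edgeR adjusted p = 5.36e-06), -0.81 and -1.39. Tab1 had 6.69, 4.98, 5.49 and 7.44 CPM in RIP DMSO, 2.67, 4.04, 3.25 and 3.83 CPM in RIP LPS and 3.49, 2.48, 3.43 and 2.43 CPM in RIP LPS+TM7nox, with -0.81, -0.75 and -1.51 (SE 0.251, edgeR adjusted p = 8.62e-06). Without replicate 1 of RIP LPS, Tab1 was not called in LPS. Tlr2 (-0.61, -0.85 and -1.08), Tlr13 (-1.47, -0.84 and -0.80), Tnip3 (-0.58, -0.97 and -0.76) and Ikbkb (-0.59, -0.38 and -0.67) completed this set. In DMSO, Tlr2 lost its call without replicate 3 of RNA or 4 of RIP, and Tnip3 without replicate 2 of RNA or 4 of RIP. In LPS, Tlr13 lost it without replicate 1 or 2 of RNA or 2, 3 or 4 of RIP, and Ikbkb without replicate 1, 3 or 4 of RNA or 1 or 2 of RIP. In LPS+TM7nox, Tlr13 lost it without replicate 1 or 2 of RNA or 3 or 4 of RIP.

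Tnfaip3, the member most raised by LPS, was not called in any treatment, with log2 ratios of -0.44, -0.44 and -0.53. Its RIP libraries held 4.84 to 6.92 CPM in DMSO, 117 to 247 CPM in LPS and 57.2 to 88.4 CPM in LPS+TM7nox, below the same-numbered RNA library in each case. With the replicate block it passed as lower in all 3, at adjusted p values of 0.0151, 0.00405 and 0.000934 and ranges over its alternatives of 0.00762 to 0.337, 0.00405 to 0.375 and 0.000934 to 0.26. It also passed without replicate 1 of RNA or replicate 4 of RIP in LPS, and likewise in LPS+TM7nox. Tlr3 (0.11, 0.13 and 0.41), Irak4 (-0.02, 0.09 and 0.27), Chuk (-0.15, 0.16 and 0.16), Tlr9 (-0.28, 0.01 and 0.32) and Tlr1 (-0.20, 0.24 and -0.08) lay near 0 and did not pass.

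Besides Myd88, members called in some treatments only were Tlr7 (-0.48 in DMSO), Tlr8 (-0.87 in DMSO), Unc93b1 (0.40 in DMSO), Ikbkg (-0.46 in LPS), Ly96 (-0.78 in LPS+TM7nox) and Ikbke (-0.52 in LPS+TM7nox). In DMSO, the call of Unc93b1 was lost without replicate 1 of RNA or of RIP, that of Tlr7 without replicate 2 or 3 of RNA or 1, 2 or 4 of RIP, and that of Tlr8 without replicate 3 or 4 of RNA or 2, 3 or 4 of RIP. That of Ikbkg was lost without replicate 1 of RNA or 2 or 3 of RIP, that of Ikbke without replicate 3 or 4 of RNA or 1 or 2 of RIP, and that of Ly96 without replicate 2, 3 or 4 of RNA or 1, 2 or 4 of RIP. These calls do not show that a ratio differed between treatments, which is the subject of the change in ratio given further on. The replicate block added Ly96 in DMSO (adjusted p = 0.0253, range 0.00623 to 0.618) and LPS (0.0401, range 0.00911 to 0.531), Tab2 in DMSO (0.027, range 0.0182 to 0.39), Tlr8 in LPS (0.0251, range 0.0251 to 0.23), Ikbke in LPS (0.0107, range 0.0107 to 0.487) and Irak1 in LPS+TM7nox (0.0461, range 0.0461 to 0.703), all as lower. Leaving out a single library added Ly96 and Tab2 in DMSO (replicate 1 of RNA or 3 of RIP, and for Tab2 also 1 of RIP), Ly96 in LPS (replicate 1 of RNA), Tlr8 in LPS (replicate 1 of RIP), and Tab2 (replicate 1 of RNA) and Tab3 (replicate 1 of RIP) in LPS+TM7nox.

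The 3′ untranslated regions (3′ UTRs) of the members were read from the annotation of GRCm39, since many known HuR sites lie there. Only the transcript that the annotation marks as canonical was read for each gene, which may not be the form present in these cells. The 10 members higher in all 3 treatments had 3′ UTRs of 1321 to 5701 bases (median 3358), and the 10 lower in all 3 had 151 to 2932 bases (median 966). The median over the 10996 tested coding genes was 1354 bases. At least 1 ATTTA was found in 10 of the 10 higher and 3 of the 10 lower members, against 73.5% of those coding genes, and the median count was 6 in the higher, 0 in the lower and 2 over all. Irak2 held 6, Tirap 6, Peli1 6, Traf6 15 and Cyld 12. A longer region has more room for the motif, so it was also counted per kb, where the median over the coding genes was 1.38. Of the 10 higher members 9 lay above this median, all but Traf3 (0.589), and of the 10 lower members 9 lay below it, all but Cd14 (4.29, from 1 copy in 233 bases). The same split was not made over all genes called higher or lower. Whether it is particular to these members was therefore not tested. Tlr6, Tab1 and Tlr13 held 0 copies in 1781, 1600 and 1293 bases. The U share overlapped widely, at 25.3 to 34.5% (median 30.8) in the higher and 20.4 to 35.1% (median 27.6) in the lower members.

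Other members did not all divide in this way. Among those called lower in some treatments only, Ly96 (5.0 ATTTA per kb), Ikbkg (2.59) and Tlr7 (1.91) lay above the coding-gene median of 1.38. Myd88 (1.01), Ikbke (1.06) and Tlr8 (0.0) lay below it. Unc93b1 held 0 ATTTA in 399 bases and was called higher in DMSO. Chuk held 7 ATTTA in 1176 bases and was not called, and Tnfaip3 held 8 in 4278 bases together with the longer AU-rich motif TTATTTATT, which 9.23% of the coding genes carry and which no other member had. The following windows show, for some members that were higher, lower or not called in RIP, the 30 bases of the 3′ UTR with the most U (written as T on the RNA strand; GRCm39), with runs of at least 3 in capitals.
Irak3 chr10:119976524-119976553 (minus strand): TTTTTTgTTTTTgTTTTTTTTTTTTTTTTT
Tirap chr9:35096330-35096359 (minus strand): gtatctgTTTgttaTTTTTTctgTTTgTTT
Peli1 chr11:21100030-21100059 (plus strand): TTTTaTTTTattgtcaaTTTTTcttgTTTT
Ticam1 chr17:56576478-56576507 (minus strand): ggagggtcctgTTTTTataataaagttatt
Tab1 chr15:80045905-80045934 (plus strand): taaagatgtcatcttgtctatctgtaactt
Tnip1 chr11:54802327-54802356 (minus strand): agtgggtcaTTTggttccaccttcatcTTT
Tlr6 chr5:65109336-65109365 (minus strand): tgaTTTTTgttaacttgagTTTTTTTcTTT
Irak4 chr15:94464931-94464960 (plus strand): taataaacTTTTTTTTTTTTTTTTTTactt

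The windows of Irak3, Tirap and Peli1, which were higher in RIP, held 28, 21 and 22 U. Those of Ticam1, Tab1 and Tnip1, which were lower, held 13 each. Not every member of either set is given here. Traf3 (18), Map3k7 (19) and Traf6, Tollip and Cyld (20 each) were also higher, and Tlr2 (15), Tlr13 (17), Tbk1 (18), Ikbkb (19) and Tnip3 (20) also lower, so the counts of the sets overlapped. Tlr6, also lower, held 20, and Irak4, which was not called, held 22 in an almost unbroken run. Members with a U-rich window thus occurred among the higher, the lower and the uncalled, and the window with the most U is no evidence of where HuR binds.

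**Figure D4:**
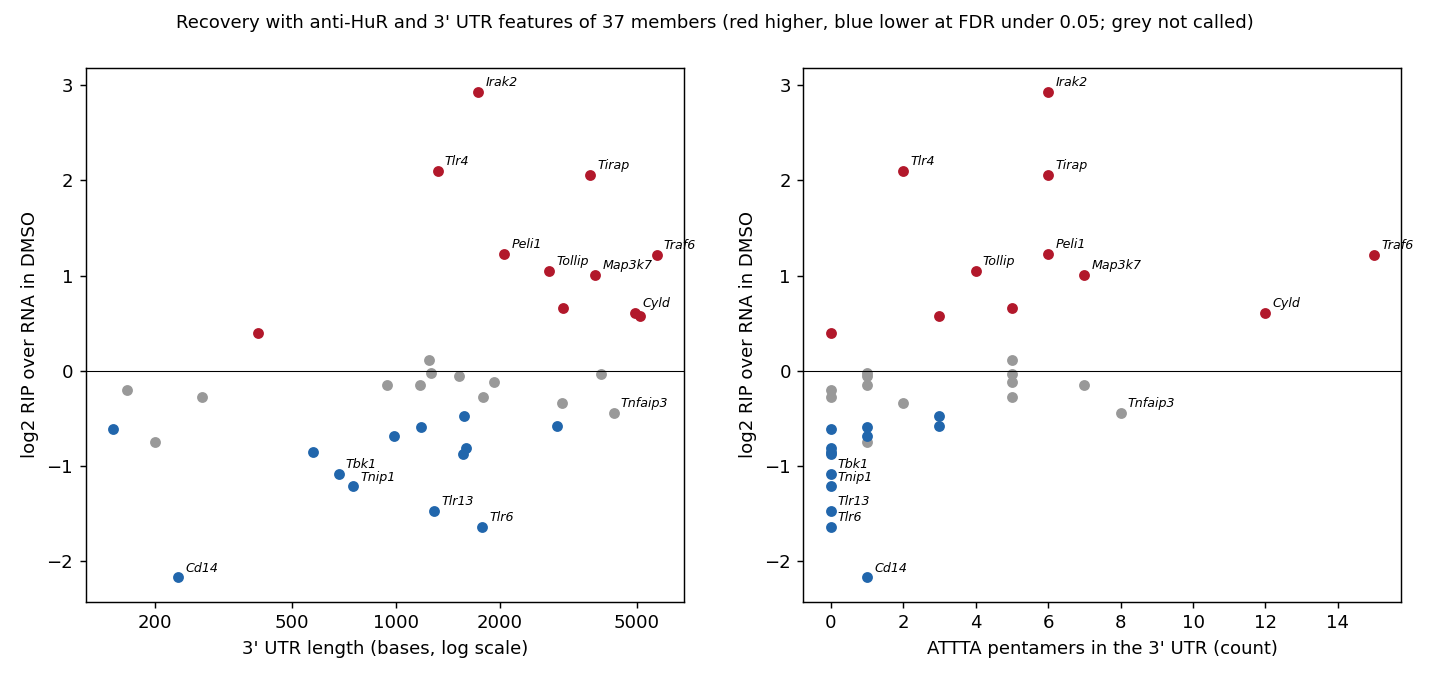
Log2 ratio of anti-HuR RIP over total RNA in DMSO against 3′ UTR length (bases, log axis) and against the number of ATTTA in it, 1 point for each of the 37 genes (red called higher, blue lower, grey not called). Cd14 (233 bases) and Tlr2 (151 bases) lie at the short end with ratios below 0; Tnfaip3 (8 ATTTA) and Chuk (7) had many copies and were not called.

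The IgG libraries gave the background of the pulldown, with 1 library for each treatment. Several members had IgG levels near their mean RNA levels. Tlr4 had 44.1, 23 and 29.7 CPM with IgG against 48.1, 23.1 and 34.3 CPM in RNA (DMSO, LPS and LPS+TM7nox). Others differed more, such as Tnfaip3 in LPS (459 against 260 CPM). CPM is a share of a library, so a higher CPM with IgG does not mean that more RNA was captured. Against IgG, with treatment as a covariate, 10 members were higher with anti-HuR, 17 lower and 10 did not pass, while 33.8% of 14973 genes tested were higher and 34.2% lower. The median was -0.22 for the members and 0.00 over all genes. With RLE size factors, the all-gene median moved up by 0.13 and the calls were 12 higher and 15 lower. This comparison and the ratio to RNA use the same RIP libraries, so their values are not independent.

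Irak2 had 9.72, 69.7 and 47.6 CPM with IgG in DMSO, LPS and LPS+TM7nox, below every RIP library of the same treatment (log2 fold change 2.83, SE 0.238, edgeR adjusted p = 3.71e-09). Tlr4 had 44.1, 23.0 and 29.7 CPM with IgG (log2 fold change 2.29, SE 0.203, edgeR adjusted p = 7.53e-09), and Tirap had 11.8, 23.1 and 9.9 CPM (2.06, SE 0.235, adjusted p = 2.31e-07). All 3 were thus far lower with IgG than with anti-HuR. Peli1 (16.5, 175 and 174 CPM; log2 fold change 1.58, SE 0.212, edgeR adjusted p = 1.96e-06) and Tollip (33.3, 71.7 and 84.2 CPM; 1.25, SE 0.201, adjusted p = 1.81e-05) followed.

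Cd14 measured 463, 1814 and 1085 CPM with IgG, above the RIP libraries of each treatment (log2 fold change -1.86, SE 0.186, edgeR adjusted p = 3.78e-08). Tbk1 had 48.3, 134 and 120 CPM (-1.58, SE 0.142, adjusted p = 8.82e-09) and Tlr6 4.97, 8.95 and 7.11 CPM (-1.53, SE 0.204, adjusted p = 1.77e-06), likewise above RIP. Ikbke (-1.09; 19.2, 172 and 76.6 CPM with IgG) and Tnfaip3 (-1.03; 9.28, 459 and 165 CPM) were lower than IgG although neither was called lower than RNA in DMSO or LPS. The calls of Tlr8 (-0.83), Tlr9 (-0.71) and Tlr13 (-0.91) were lost without the IgG library of DMSO, and those of Tlr9, Tab3 and Tnip3 without that of LPS. Tlr8 also lost its call without replicate 2 of RIP LPS or of RIP LPS+TM7nox, and Tlr9 without replicate 2 of RIP LPS or 4 of RIP LPS+TM7nox. Unc93b1 (0.33) gained one without the IgG library of LPS, replicate 2 of RIP LPS or replicate 2 or 4 of RIP LPS+TM7nox, and Tlr3 without replicate 4 of RIP DMSO. With the replicate block, Tlr3 (0.44, adjusted p = 0.0245, range 0.000846 to 0.37) and Ikbkg (-0.22, adjusted p = 0.0354, range 0.0354 to 0.668) passed, and Tlr9 (-0.71, adjusted p = 0.294, range 0.0175 to 0.421) and Tab3 (-0.49, adjusted p = 0.081, range 0.00271 to 0.257) did not.

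**Figure D5:**
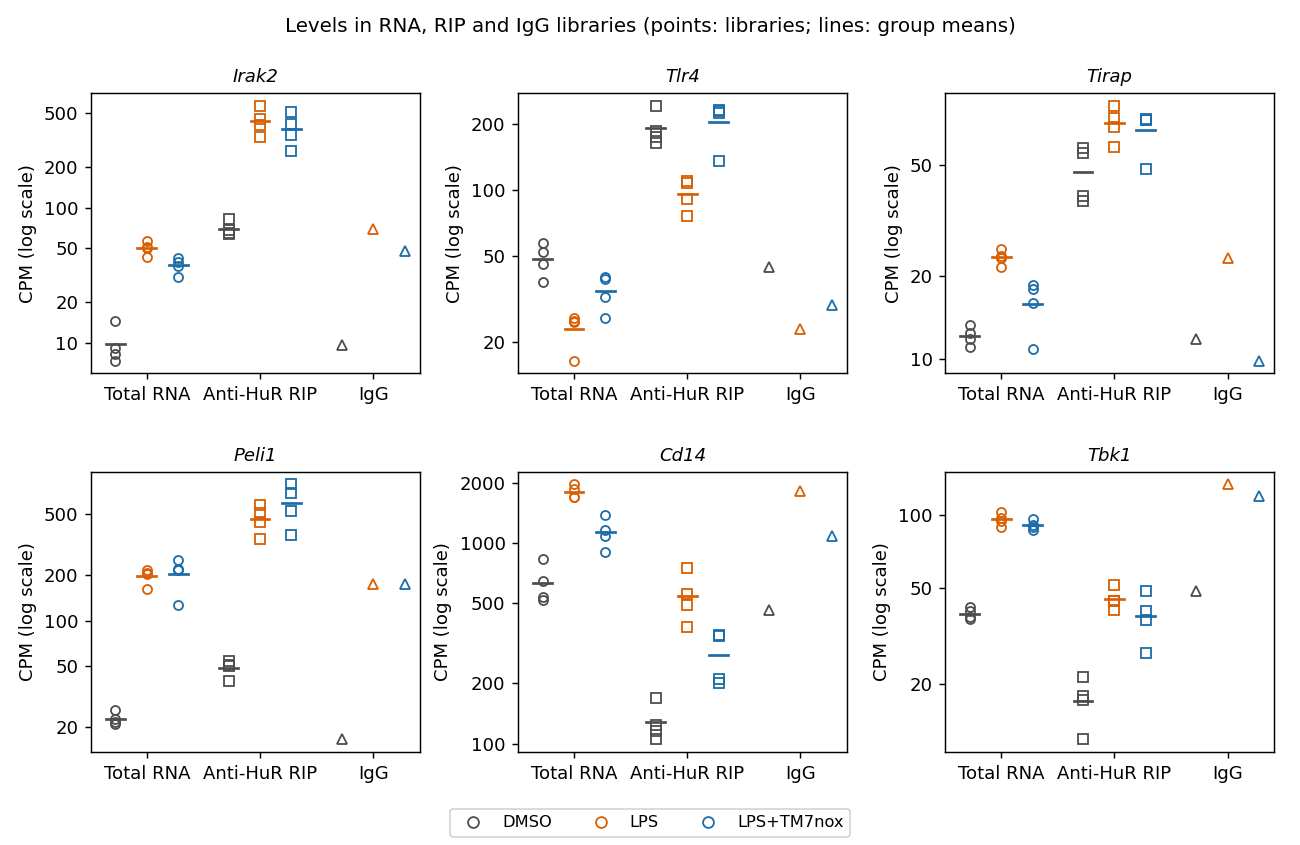
Levels in CPM (log axis) of Irak2, Tlr4, Tirap, Peli1, Cd14 and Tbk1 in total RNA (circles), anti-HuR RIP (squares) and IgG libraries (triangles) of DMSO, LPS and LPS+TM7nox, 1 point for each library (4, 4 and 1 for each treatment), with lines at group means. Irak2, Tlr4 and Tirap are highest in RIP in each treatment, and Cd14 is lowest there.

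Whether a treatment changed recovery beyond the change in RNA was tested as the change of the ratio of RIP over RNA between treatments. With LPS against DMSO, edgeR called 0 members, as did DESeq2, and 0.0419% of all genes (6 of 14311) were called. Without adjustment, 1 of the 37 members had p below 0.05, against 7.27% of all genes. It was Unc93b1 (difference of log2 ratios -0.40, SE 0.192, edgeR adjusted p = 0.676). The differences ran from -0.44 to 0.63 with standard errors of 0.184 to 0.535. Cd14 (-2.17 to -1.70), Tlr6 (-1.64 to -1.03) and Tlr13 (-1.47 to -0.84) had ratios nearer 0 in LPS without passing.

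With LPS+TM7nox against LPS, the question was whether the compound altered recovery with HuR. Again edgeR and DESeq2 called 0 members, and 0.00699% of all genes (1 of 14311) were called. Unadjusted p was below 0.05 for 6 of the 37 members and for 5.39% of all genes. The 6 were all at an edgeR adjusted p of 0.871. Differences of log2 ratios were 0.63 for Cyld (SE 0.226), 0.57 for Tlr4 (SE 0.273), -0.48 for Irak1 (SE 0.184), -0.61 for Myd88, -0.58 for Tnip1 and -0.76 for Tab1 (SE 0.349). The same-numbered ratios of Cyld ran from 1.54 to 1.85 in LPS and from 2.43 to 2.78 in LPS+TM7nox and did not overlap, and those of Irak1 ran from 0.954 to 1.25 and from 0.719 to 0.869, again apart. Those of Tlr4 (3.01 to 5.49 and 4.17 to 8.89) and Tab1 (0.368 to 0.761 and 0.217 to 0.573) overlapped. Compared by replicate number, the ratio was higher with the compound in 4 of 4 pairs for Cyld and Tlr4 and lower in 4 of 4 for Irak1, Myd88, Tnip1 and Tab1. These 6 were picked by their unadjusted p, so this only describes them. Standard errors over the 37 members were 0.184 to 0.566, and a count of 0 calls does not show that the ratios were equal.

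Another 36 genes of the pathway, of which 28 were tested in RNA, gave the setting. With LPS, 15 rose and 2 fell (median log2 fold change 0.54), against 20.2% and 21.7% of all genes. The largest rises were those of Traf1 (4.42, SE 0.319, edgeR adjusted p = 9.95e-08), Nfkbia (3.21, SE 0.151, adjusted p = 2.67e-09), which encodes the NF-kB inhibitor IκBα, and Irf7 (2.79, SE 0.268, adjusted p = 1.67e-06), and those that fell were Sarm1 (-2.03) and Cnpy3 (-1.10), a chaperone of Toll-like receptors. With TM7nox added, 4 rose and 5 fell, against 7.37% and 6.4% of all genes. Syk (0.67), Cd180 (0.53) and Hsp90b1 (0.49) were the largest rises, and Map3k8 (-1.24), Nfkbia (-0.91) and Pik3ap1 (-0.72) the largest falls. In RIP over RNA, 6 were higher and 17 lower in DMSO, 5 and 14 in LPS and 6 and 19 in LPS+TM7nox, of 29 tested. The shares of all genes were 37% higher and 33.4% lower in DMSO, 32.9% and 30.8% in LPS, and 35.2% and 34.8% in LPS+TM7nox. In DMSO, Tifa (3.78), Nfkbia (2.06) and Ube2v1 (1.93) were highest, and Hsp90b1 (-2.75), Ly86 (-1.98) and Sharpin (-1.86) lowest. No test of either list against the other genes was made.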

How the data were processed

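Total RNA, anti-HuR RIP and IgG libraries of RAW264.7 cells were made with a SMART-Seq Stranded kit, per the labels' protocols, after TRIzol extraction of cell pellets (RNA) or beads (RIP). The authors deposited raw read counts per gene for the 27 libraries. FastQC 0.11.9, STAR, HTSeq, DESeq2 and the build GRCm39 are named, with no role or order, per the submitters' processing notes. Strand setting: not given in the sources used here, nor is the annotation release. No molecular identifiers are described, so counting precision does not cover PCR copies. Counts totalled 2728534 to 41449233 in a library. Columns of samples not in the series numbered 0.

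Members and lists were chosen with earlier results of these data known. From the counts, edgeR 4.0.16 (R 4.3.3) fitted quasi-likelihood models after filterByExpr (minimum count 10) and TMM: the 12 RNA libraries in 1 fit, the 24 RNA and RIP libraries in 1 fit for ratios and their changes, and the 15 RIP and IgG libraries with treatment as covariate. Tests were two-sided, p-values were adjusted by Benjamini-Hochberg over all genes tested, and genes were called below 0.05. The standard error is the log2 fold change over the square root of F. The code was run on simulated counts with known changes, drawn from a common mean profile with no link between same-numbered libraries. That run therefore does not test the TMM scaling or the p-values for libraries that deviate together. In each comparison, full statistics were given for at most 8 called members, those with the largest change and at least 1 for each role where called; other pathway genes were named only as the called genes with the largest change, at most 3 in each direction.

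Same-numbered libraries deviated together from their group means (correlation over genes 0.143 to 0.365 between RNA groups, 0.209 to 0.406 between RIP and RNA of a treatment, 0.216 to 0.507 between RIP groups), so the numbers were taken to pair the libraries. The main calls, and the fits with a library left out, did not use this pairing. The fit with the replicate number as a block was an alternative. The others were DESeq2 1.42.0, RLE size factors, no low-count filter, each library left out, replicates 1 and 2 only, replicates 3 and 4 only, and only the groups compared. Exon and 3′ UTR positions came from GENCODE M39 on GRCm39, and promoters from RefSeq (GRCm38.p6). Reads shared between overlapping genes could not be separated.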

Additional observations from a re-analysis of the deposited data

Results flagged for a closer look

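In 222 groups of 4 libraries, a gap test at the 95% level (Dixon) set 11 libraries apart from the other 3 of their group, where chance gives about 11.1. Of these, 7 were replicate 1 libraries. In RNA DMSO replicate 1, which had the fewest counts, Tnip1 stood at 137 CPM (others 79.1 to 82.9), Ikbkg at 30.8 (19.4 to 20.7) and Unc93b1 at 182 (211 to 215). Tlr4 stood at 16.5 CPM in RNA LPS replicate 1 (24.7 to 25.9). In RNA LPS+TM7nox replicate 1, Traf6 stood at 32.1 CPM (44.2 to 45.1) and Chuk at 42.8 (48.5 to 49.7), and Tirap stood at 48.4 CPM in RIP LPS+TM7nox replicate 1 (72.8 to 73.1). In RIP LPS+TM7nox replicate 4, Tlr4 stood at 135 CPM (224 to 233) and Tab2 at 117 (148 to 153). Tlr3 stood at 65.2 CPM in RIP LPS replicate 4 (99.6 to 106), and Cyld at 30.2 CPM in RNA DMSO replicate 2 (32.8 to 33.0).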

How the results depend on the processing

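Of 5809 values of members recomputed under an alternative, 5435 kept their direction and side of the threshold, 253 lost a call, 121 gained one and 0 reversed a call. With the replicate block, the members called numbered 33 for LPS against DMSO (29 without it), 18 for LPS+TM7nox against LPS (14), 29 for LPS+TM7nox against DMSO (26), 27, 25 and 25 for RIP over RNA in DMSO, LPS and LPS+TM7nox (24, 21 and 23), 0 for both changes of that ratio and 27 for anti-HuR against IgG (27). Calls over all genes moved with the block too, from 5190 to 6481 of 12369 for LPS against DMSO, from 1704 to 3091 for LPS+TM7nox against LPS and from 5850 to 7173 for LPS+TM7nox against DMSO. The block removed 2 single calls and added 22, all given in the report, and changed no other call. With replicates 1 and 2 only, 16 members were called for LPS against DMSO, 1 for LPS+TM7nox against LPS, 13 for LPS+TM7nox against DMSO and 13 for RIP over RNA in DMSO. With replicates 3 and 4 only, the same number of libraries, these were 31, 19, 35 and 26. The cause was not tested. Leaving out single libraries gave 7 to 11 called members for LPS+TM7nox against LPS, the fewest without replicate 4 of RNA LPS. The largest standard errors for LPS against DMSO belonged to the scarce members Tlr8 (0.398), Tlr9 (0.367) and Ly96 (0.35). The effect of depth was not tested by thinning the counts.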
